A study of Mus musculus with 8 samples.

Results

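The libraries described here are bulk transcriptomes of ITGA6bright EGFP- cells, sorted from the epidermis of the back of adult C57BL/6 mice in telogen that carry the allele Troy-EGFP-IRES-CreERT2, beside those of all viable (DAPI-) epidermal cells of the same animals. The comparison holds 4 of the 6 bulk libraries of the series, 2 of each population, and each of the 2 mice gave 1 library of each. The remaining 2 bulk libraries are the ITGA6bright EGFP+ cells of these mice, and they entered the fit so that all libraries shared 1 estimate of the spread. The labels name no treatment, and the reporter allele is common to every bulk library. The reporter is a cassette placed at the Troy (Tnfrsf19) locus, where EGFP follows the activity of the Troy promoter. The question was what basal cells that lack the reporter contain when they are set against the whole epidermis from which they came.

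The epidermis is renewed from a basal layer whose keratinocytes are anchored to the basement membrane by integrins, of which ITGA6 is the usual handle for sorting. Basal cells line the interfollicular epidermis (IFE) and the outer surface of the hair follicle (HF), including its infundibulum, isthmus and bulge, and cells that leave the layer switch on Krt1 and Krt10 and later cornify. Langerhans cells, T cells and melanocytes live between the keratinocytes. In bulk RNA, fewer cells of a type and less RNA per cell cannot be told apart, and this holds for every difference below.

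The viable libraries held 305147 and 453005 counts and the EGFP- libraries 157537 and 188225, so that the EGFP- population was the shallowest of the 3. Mitochondrial genes took 12.5% to 16.1% of each library. Levels are given as CPM, the counts of a gene relative to those of all tested genes after TMM scaling, always with mouse 1 before mouse 2. CEL-Seq2 counts tags at the 3' end of a transcript, so a level is not affected by transcript length, but tags that map to near-identical genes, such as Krt6a and Krt6b, are uncertain. All adjusted p values are from edgeR (quasi-likelihood) and were adjusted over 4653 genes by the Benjamini-Hochberg method.

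The sort genes were measured first. Tnfrsf19 stood at 85.5 and 83.4 CPM in the viable libraries, at 22.6 and 35.0 CPM in the EGFP- libraries and at 109.9 and 72.2 CPM in the EGFP+ libraries. Both EGFP- values lay below all 4 others, and the difference from EGFP+ cells passed the test (log2 -1.65 ± 0.49 SE, adjusted p = 0.0434), whereas that from viable cells did not (log2 -1.50 ± 0.49, adjusted p = 0.136). The former call was lost without the EGFP- or the EGFP+ library of mouse 1 (adjusted p = 0.108 and 0.378). Whether the tags of Tnfrsf19 lie inside or outside the sequence that the cassette replaced is not given in the sources used here. The gate selected for bright ITGA6 protein, but the Itga6 transcript was not higher after it. Itga6 was at 118 and 178 CPM in the viable libraries against 30.2 and 87.5 CPM in the EGFP- libraries, a log2 difference of -1.28 ± 0.45 that missed the threshold without the mouse in the model (adjusted p = 0.170) and passed it with the mouse as a block (adjusted p = 0.0487). Ly6a, which encodes the surface protein SCA1, stood at 125 and 106 against 113 and 70.0 CPM and was not called (adjusted p = 0.760).

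Of the 4653 genes tested, 83 (1.78%) differed between EGFP- basal cells and viable cells. EGFP- cells had more of 43 of them (0.924%) and less of 40 (0.860%), and 82 of the 83 moved the same way in both mice. The exception was Tle1. Scaling by library totals alone moved the median log2 fold change of all tested genes from 0.04 to -0.07 and changed the split to 27 higher and 49 lower. With the mouse as a block 163 genes (3.50%) were called, 83 higher and 80 lower, and these held all 83 of the unblocked fit, whereas the block on the viable and EGFP- libraries alone gave 98 calls, 52 higher and 46 lower. Many calls depended on having both viable libraries. Without the viable library of mouse 1, 54 of the 83 lost their call, and without that of mouse 2, 57 did, the lone remaining library being assumed to vary like the other populations. A fit on the viable and EGFP- libraries alone called 38 genes, 18 higher and 20 lower. The filter on low counts asked for 10 counts at the median library size in at least 2 libraries, and 12 of the 43 higher genes met it only through the EGFP- libraries in which they were high. These were Hsd17b13, Pcdh19, Cyp1b1, Insig2, Irx4, Dclk1, Tacc3, Ptprc, Tle1, Akr1c18, Cldn8 and Defb1, the last 3 named only for this count, and the 12 were called without a filter as well. A group of 17 genes, picked here by that property, kept its call in every alternative that gave an adjusted p, namely Epb4.1l3, Atf3, Dapl1, Serpinb7, Sox21, Fos, Hlf, Clca5, Pou3f1, Oas1f, Maf, Sfrp1 and Krt1 among those that fell and Marcks, Tns3, Insig2 and Cyp1b1 among those that rose.

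**Figure D1:**
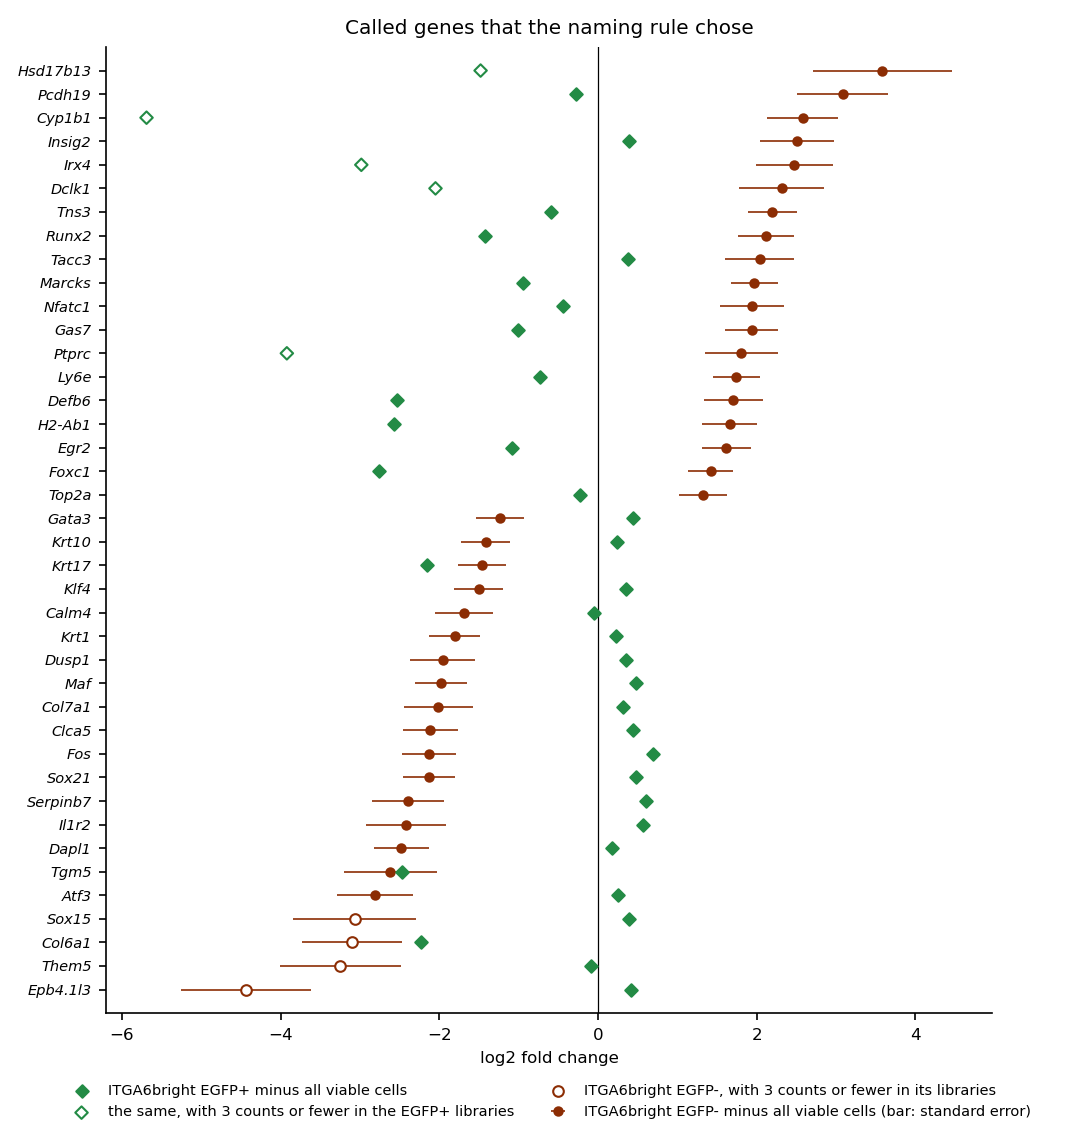
Log2 fold change against all viable cells (x axis) of 40 called genes chosen by the naming rule (y axis), for ITGA6bright EGFP- cells (circles, bar 1 standard error) and, beside it, ITGA6bright EGFP+ cells (diamonds). Open symbols have 3 counts or fewer in that population, where the fitted value depends on the prior count. Col6a1, Tgm5 and Krt17 lie left of 0 in both populations, whereas Foxc1, Defb6 and H2-Ab1 lie right of 0 in EGFP- cells and left of 0 in EGFP+ cells.

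Krt1, Krt10, Dapl1 and Klf4, genes of commitment and differentiation, were among those lost. Of the 20 genes of the early differentiation list, which mark cells entering the spinous layer, 18 were tested, 4 were called lower where 0.860% of all tested genes were, none was called higher, and the median log2 fold change of the 18 was -0.57 against 0.04 for all genes tested. Krt1 (chromosome 15, 101845426 to 101850786, mm10/GRCm38), the type II keratin of suprabasal cells, stood at 1233 and 1001 CPM in the viable libraries and at 385 and 257 CPM in the EGFP- libraries. Both EGFP- values lay below both viable values, and the gene fell by 1.81 on the log2 scale (SE 0.32, adjusted p = 0.00403). Its partner Krt10 (chromosome 11, 99385254 to 99397449) went from 1016 and 823 to 400.1 and 292 CPM, a log2 change of -1.42 ± 0.31 with an adjusted p of 0.0190. The EGFP+ libraries held 1332 and 1267 CPM of Krt1 and 1002 and 1168 CPM of Krt10 and were not called against viable cells for either (adjusted p = 0.986 for both). The 2 basal populations differed in both keratins (log2 -2.03 ± 0.32, adjusted p = 3.38e-04 for Krt1, and log2 -1.66 ± 0.31, adjusted p = 0.00179 for Krt10).

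Dapl1, a gene of early stratifying keratinocytes, showed the largest of the early differentiation changes that were called, at 1119 and 1352 CPM in viable cells and 279 and 169 CPM in EGFP- cells (log2 -2.48 ± 0.35, adjusted p = 0.00145). Its lowest viable value was far above its highest EGFP- value. Klf4, a transcription factor of barrier formation, was at 755 and 1034 against 325 and 309 CPM (log2 -1.50 ± 0.31, adjusted p = 0.0128). Krtdap did not pass, and its EGFP- values of 536 and 163 CPM differed from each other more than the viable values of 620.0 and 424 CPM did. A further 2 members were called with the mouse as a block but not in the main fit. These were the desmosomal cadherin Dsg1a (log2 -1.32, adjusted p = 0.0951 and 0.00897 with the block) and the metallothionein Mt4 (log2 -2.89, adjusted p = 0.0584 and 0.0306). Without the block, both were called without a filter on low counts (0.0144 and 0.0256). With a stricter filter Mt4 was called (0.0462) and Dsg1a was not (0.0832). The call of Klf4 was lost without the viable library of mouse 2 (adjusted p = 0.238), and that of Krt10 without either viable library (adjusted p = 0.159 without mouse 1 and 0.0696 without mouse 2).

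Of the late differentiation genes, 1 was lower and many were too low to test. Of the 28 genes of the granular and cornified list, 23 were in the files and 10 were tested, with a median log2 fold change of -0.75. Only Calm4, a calmodulin-like protein of differentiating epidermis, was called, where 0.860% of all tested genes were called lower, at 246 and 207 CPM in viable and 83.0 and 58.3 CPM in EGFP- cells (log2 -1.69 ± 0.37, adjusted p = 0.0186, which rose to 0.0963 and 0.0537 without the viable library of mouse 1 or mouse 2). Casp14, the caspase of cornification, joined it with the block (log2 -1.31, adjusted p = 0.0565 and 0.0186). Lor, which encodes loricrin, was at 103 and 63.1 against 15.1 and 70.0 CPM and was not called (adjusted p = 0.542). Flg2 had 6 and 2 counts in the viable libraries and 1 and 3 in the EGFP- libraries and was not tested.

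**Figure D2:**
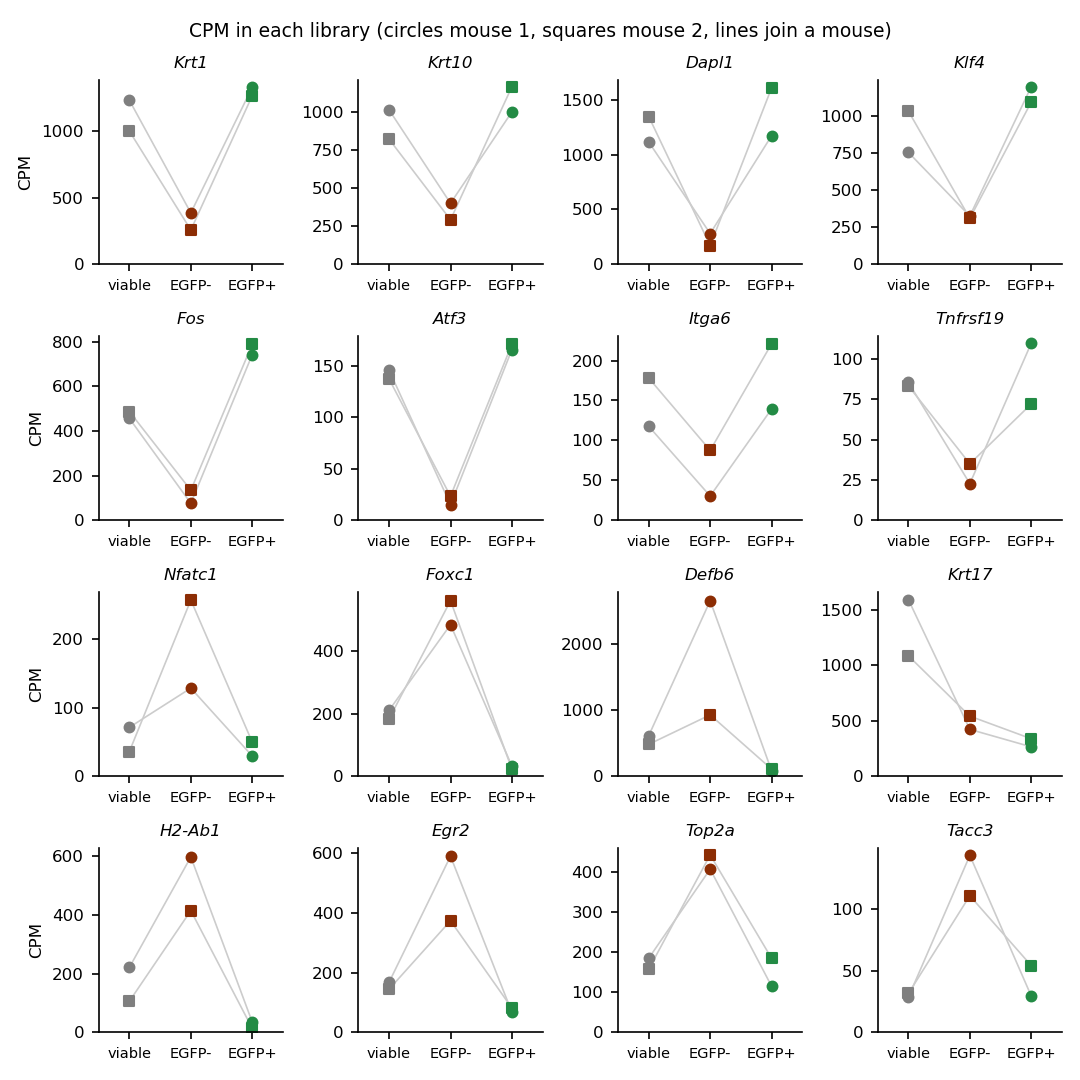
CPM of 16 genes (y axis of each panel, starting at 0) in the viable, ITGA6bright EGFP- and ITGA6bright EGFP+ libraries (x axis), with circles for mouse 1, squares for mouse 2 and lines joining the libraries of a mouse. Krt1, Krt10, Dapl1, Klf4, Fos and Atf3 are lowest in both EGFP- libraries, Foxc1, H2-Ab1, Egr2 and Top2a are highest there, and the 2 EGFP- values of Defb6 lie far apart at 2649.8 and 927 CPM.

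Il1r2 and Gata3 were the genes lost among those of undifferentiated interfollicular basal cells. All 14 genes of this list were tested, 11 had a negative log2 fold change, 2 were called lower, where 0.860% of all tested genes were, none was called higher, and the median was -0.55. Il1r2, the decoy receptor of interleukin-1, was at 92.6 and 185 CPM in viable cells and 22.6 and 29.2 CPM in EGFP- cells (log2 -2.42 ± 0.51, adjusted p = 0.0140). The EGFP+ libraries held 212 and 212 CPM of it. Gata3, a transcription factor of IFE and follicle keratinocytes, was at 1119 and 1339 against 581 and 466 CPM (log2 -1.24 ± 0.30, adjusted p = 0.0397). The pan-basal keratins were not called. Krt14 stood at 5138 and 6016 against 4364 and 3522 CPM (adjusted p = 0.544) and Krt5 at 13055 and 13787 against 8131 and 10397 CPM (adjusted p = 0.537), with all 4 EGFP- values below the viable ones. Il1r2 lost its call without the viable library of mouse 2 (adjusted p = 0.238), and Gata3 without either viable library (0.116 and 0.346) or the EGFP+ library of mouse 1 or 2 (0.0623 and 0.0639).

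A single adhesion gene of the basal layer was called. Of the 15 genes of integrins, hemidesmosome and basement membrane, 12 were tested, and 1 was called lower, where 0.860% of all tested genes were. This was Col7a1, the collagen of anchoring fibrils, at 146 and 124 CPM in viable cells and 30.2 and 35.0 CPM in EGFP- cells (log2 -2.01 ± 0.43, adjusted p = 0.0170, and 0.0732 without the viable library of mouse 1). Itgb4, the partner of ITGA6 in the hemidesmosome, was at 139 and 165 against 60.4 and 87.5 CPM and was not called (adjusted p = 0.203). Itgb1 was at 228 and 304 against 151 and 309 CPM, and its groups overlapped. The median of the tested members was -0.69 on the log2 scale. Against EGFP+ basal cells, 5 of the 12 were called lower and none higher, where 328 of all 4653 genes (7.05%) were called in either direction.

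The immediate early genes, which keratinocytes switch on within minutes of a growth signal or of tissue handling, were called in both directions. Of 21 listed genes 18 were tested, 3 were called lower and 1 higher, where 0.860% and 0.924% of all tested genes were, and the median log2 fold change was -0.55. The promoters of the 3 that fell are shown because these genes are classic targets of cAMP and stress signalling through the CRE, whose core is TGACG. The stretches are the 200 bases just before the RefSeq start in GRCm38.p6, written along the gene's own strand, with each match to TGACG on either strand in capitals.
Fos: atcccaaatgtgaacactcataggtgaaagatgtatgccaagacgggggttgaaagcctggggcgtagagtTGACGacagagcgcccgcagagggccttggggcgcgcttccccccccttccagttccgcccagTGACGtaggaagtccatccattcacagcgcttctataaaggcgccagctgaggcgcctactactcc
Atf3: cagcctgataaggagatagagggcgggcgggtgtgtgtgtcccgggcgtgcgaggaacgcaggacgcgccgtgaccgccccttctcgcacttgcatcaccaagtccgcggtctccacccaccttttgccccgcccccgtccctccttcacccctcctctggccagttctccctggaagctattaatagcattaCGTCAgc
Dusp1: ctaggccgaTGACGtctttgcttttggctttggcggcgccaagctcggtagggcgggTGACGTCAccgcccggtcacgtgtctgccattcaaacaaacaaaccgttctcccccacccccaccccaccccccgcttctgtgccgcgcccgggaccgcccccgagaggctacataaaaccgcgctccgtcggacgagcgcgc
The stretch of Fos is chr12:85473690-85473889, plus strand, that of Atf3 chr1:191183334-191183533, minus strand and that of Dusp1 chr17:26508473-26508672, minus strand. Fos has 2 matches, Atf3 1 and Dusp1 3, of which a pair overlaps in the palindrome TGACGTCA. Among 32851 RefSeq promoter stretches of the same length, 15.7% held TGACG, 0.533% held it 3 times or more and 1.47% held TGACGTCA. A match describes these letters only. Egr2, the member that rose, has 5 annotated starts, and the core was found before 3 of them. The stretches before these 3 starts overlap and share the same 2 matches.

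Fos (chromosome 12, 85473890 to 85477274), an AP-1 subunit, stood at 456 and 487 CPM in the viable libraries, 75.5 and 134 CPM in the EGFP- libraries and 742 and 789 CPM in the EGFP+ libraries. EGFP- cells held the least in both mice, with a log2 fold change against viable cells of -2.13 ± 0.34 (adjusted p = 0.00299). Atf3 (chromosome 1, 191170296 to 191183333), a stress-induced repressor, was at 146 and 137 against 15.1 and 23.3 CPM (log2 -2.81 ± 0.48, adjusted p = 0.00314). Dusp1, a phosphatase that switches MAP kinases off, was at 185 and 153 against 52.8 and 35.0 CPM (log2 -1.96 ± 0.41, adjusted p = 0.0140, and 0.0717 without the viable library of mouse 1). Egr2, a zinc-finger transcription factor, went the other way, from 167 and 144 CPM in viable cells to 589 and 373 CPM in EGFP- cells (log2 1.62 ± 0.30, adjusted p = 0.00617), and lost its call without the viable library of mouse 1 (0.0601) or mouse 2 (0.136). Of the remaining members, Fosb was at 103 and 115 against 67.9 and 23.3 CPM without a call, whereas Jun was at 1247 and 1713 against 1751 and 2099 CPM and Hspa1b at 424 and 512 against 362 and 385 CPM. Jun and Hspa1b were chosen after their values were seen.

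The bulge regulators Nfatc1 and Foxc1 were enriched in EGFP- cells, and the follicle gene Col6a1 was lost. Of the 30 genes of the bulge and hair germ, 29 were in the files and 15 were tested, with 2 called higher, where 0.924% of all tested genes were, 1 called lower, where 0.860% were, and a median log2 fold change of 0.23. Nfatc1, a transcription factor tied to the quiescence of bulge stem cells, stood at 71.3 and 36.1 CPM in viable cells and 128 and 257 CPM in EGFP- cells. Both EGFP- values exceeded both viable ones (log2 1.94 ± 0.41, adjusted p = 0.0140), although without the viable library of mouse 2 or the EGFP- library of mouse 2 the adjusted p was 0.250 and 0.0827. Foxc1 (chromosome 13, 31806646 to 31810635), a second regulator of bulge quiescence, was at 210.2 and 183 CPM in viable cells, 483 and 559.8 CPM in EGFP- cells and 32.2 and 22.6 CPM in EGFP+ cells. It rose 2.67-fold over viable cells (log2 1.42 ± 0.28, adjusted p = 0.00909, and 0.0963 and 0.224 without the viable library of mouse 1 or 2). Fst, which encodes the activin antagonist follistatin, was at 146 and 137 against 234 and 332 CPM. Fst was called with the block but not in the main fit (adjusted p = 0.106 and 0.0480).

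Other markers of the bulge were not called or had too few counts. Krt15, the keratin most often used for bulge cells, was at 7910.2 and 10665 CPM in viable and 10946 and 10676 CPM in EGFP- cells (adjusted p = 0.840). Cd34, the surface marker of the mouse bulge, had 3 and 10 counts in the viable libraries and 0 in both EGFP- libraries. Wif1 and Krt24 had 11 and 10 counts over the viable pair and likewise none in the EGFP- pair. A count of 0 allows up to 3 counts among the 345762 of the EGFP- pair, and against that limit, on library totals and with the viable counts taken as exact, Cd34 was at least 1.98-fold lower, Wif1 at least 1.67-fold and Krt24 at least 1.52-fold lower. These limits cover counting error in the EGFP- pair only, and the 3 genes were too low to test. Wif1, Krt24, Sox9 and Lhx2 were chosen after their values were seen. Lgr5 had 6 and 11 counts in viable and 1 and 3 in EGFP- libraries. Sox9, the transcription factor of follicle keratinocytes, was at 1611 and 1794 against 1804 and 3638 CPM (adjusted p = 0.390) and Lhx2 at 359.9 and 229.9 against 196 and 192 CPM (adjusted p = 0.451). Both were higher than in EGFP+ cells, where Sox9 stood at 622 and 794 CPM and Lhx2 at 18.8 and 27.1 CPM (log2 1.95 ± 0.35, adjusted p = 0.00114, and log2 3.11 ± 0.45, adjusted p = 1.21e-04). Of the 15 tested genes of the list 11 had a positive log2 fold change, and the measured members summed to 13169 and 16534 CPM in viable and 17107 and 20268 CPM in EGFP- libraries, a sum in which Krt15 takes a large share.

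In the upper follicle, Defb6 and Plet1 were enriched and Krt17 was lost. Of 13 listed genes 12 were found by symbol and 9 of these were tested, with a median of 0.76. Of the 9, 1 was called higher and 1 lower, where 0.924% and 0.860% of all tested genes were. A single one of the 9 passed the filter only through the EGFP- libraries. Plet1, filed as 1600029D21Rik, is outside these counts and was chosen after its value was seen. It was at 53.4 and 54.1 against 196 and 181 CPM (log2 1.80 ± 0.36, adjusted p = 0.00953). Plet1 was called in 12 of the 14 alternatives that gave an adjusted p. Defb6 (chromosome 8, 19225478 to 19228209), a beta-defensin, was at 613 and 482 CPM in viable cells and 2649.8 and 927 CPM in EGFP- cells (log2 1.70 ± 0.37, adjusted p = 0.0190). The 2 EGFP- libraries differed by more than the 2 viable ones, and the call was lost without either viable library (0.0871 and 0.209) and without the EGFP- library of mouse 1 (0.0526). Krt79, the keratin of the hair canal, was at 1599.9 and 1386 against 3895 and 1674 CPM and was not called (adjusted p = 0.229). Gata6, a transcription factor of the sebaceous duct, was at 118 and 194 against 143 and 525 CPM (adjusted p = 0.231), so that Krt79 was higher in the EGFP- library of mouse 1 and Gata6 in that of mouse 2. Krt17, a keratin of the follicle's outer root sheath and companion layer, fell instead, from 1593 and 1086 to 423 and 542 CPM (log2 -1.46 ± 0.31, adjusted p = 0.0143, and 0.172 without the viable library of mouse 1). Against EGFP+ cells, 7 of the 9 tested upper follicle genes were called higher and none lower, where 7.05% of all tested genes were called in either direction. None of the 4 tested sebaceous gland genes of 12 was called, and Scd1 was at 203 and 83.4 against 151 and 111 CPM.

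A small number of genes was low in both basal populations, a pattern looked for after the values were seen. Col6a1, a collagen VI chain, had 24 and 40 counts in the viable, 1 and 2 in the EGFP- and 8 and 3 in the EGFP+ libraries. With so few counts its EGFP- level was 10.3% (2.07 to 31.4%) of the viable level (exact 95% counting interval), with an adjusted p of 0.0118 that rose to 0.0601 and 0.177 without the viable library of mouse 1 or 2. Tgm5, a transglutaminase of the cornified envelope, was at 82.0 and 119 CPM in viable, 7.55 and 23.3 CPM in EGFP- and 24.1 and 9.02 CPM in EGFP+ cells (adjusted p = 0.0245 and 0.0193 for EGFP- and EGFP+ against viable, the former 0.346 without the viable library of mouse 2). Sfrp1, a secreted Wnt inhibitor, was at 438 and 435, 128 and 111 and 169 and 180.4 CPM in the same order (adjusted p = 0.00299 and 0.0281). Krt17 was at 265 and 338 CPM in EGFP+ cells (adjusted p = 9.54e-04). None of these 4 was called between the 2 basal populations, and both comparisons share the viable libraries. The EGFP+ calls were also fragile, with adjusted p values of 0.482 for Tgm5 without the viable library of mouse 2 and 0.124 without the EGFP+ library of mouse 2, of 0.171 to 0.758 for Sfrp1 without any one viable or EGFP+ library, of 0.155 to 0.449 for Col6a1 likewise, and of 0.0756 for Krt17 without the EGFP+ library of mouse 1.

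Among immune genes H2-Ab1 and Ptprc were enriched in EGFP- cells, and most others were too low to test. Of the 24 genes of Langerhans cells and antigen presentation, 19 were in the files, 6 passed the filter and 1 was called higher, or 4 with the mouse as a block, where 0.924% of all tested genes were called higher and, with the block, 3.50% in either direction. Cd74 passed the filter only through the EGFP- libraries, so the levels of those that passed do not stand for the list. H2-Ab1 (chromosome 17, 34263227 to 34269418), the beta chain of MHC class II, stood at 221 and 106 CPM in viable cells, 596 and 414 CPM in EGFP- cells and 34.8 and 13.5 CPM in EGFP+ cells. The 3 populations did not overlap, and EGFP- cells exceeded viable ones 3.16-fold (log2 1.66 ± 0.35, adjusted p = 0.0144, and 0.326 without the viable library of mouse 2). The class II chains H2-Aa and H2-Eb1 missed the threshold in the main fit and passed with the block. Without the block, H2-Aa was called without a filter on low counts (adjusted p = 0.0333) but not with a stricter filter (0.0521). H2-Eb1 was called with the stricter filter (0.0386) but not without a filter (0.0743). H2-Aa was at 207 and 58.6 against 369.9 and 315 CPM (log2 1.44 ± 0.40, adjusted p = 0.0702 and 9.59e-04 with the block). H2-Eb1 was at 135 and 149 against 219 and 472 CPM (log2 1.30 ± 0.34, adjusted p = 0.0507 and 0.00708). Cd74, the invariant chain that class II dimers assemble with, was at 42.8 and 24.8 against 136 and 64.1 CPM and was not called (adjusted p = 0.203). Epcam, an adhesion protein of Langerhans cells and follicle keratinocytes, passed with the block (log2 1.24, adjusted p = 0.0539 and 0.0120). H2-Eb1 and Epcam were chosen after their values were seen.

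The promoters of the class II genes are shown because the family is read through a shared module, in which CIITA acts through the X and Y boxes. Capitals mark CTGATTGG, the Y box core, searched on both strands of the 200 bases before the start.
H2-Aa: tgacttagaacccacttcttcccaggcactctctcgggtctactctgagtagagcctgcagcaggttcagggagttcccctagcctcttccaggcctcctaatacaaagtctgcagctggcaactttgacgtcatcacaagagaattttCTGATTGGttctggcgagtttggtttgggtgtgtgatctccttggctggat
H2-Eb1: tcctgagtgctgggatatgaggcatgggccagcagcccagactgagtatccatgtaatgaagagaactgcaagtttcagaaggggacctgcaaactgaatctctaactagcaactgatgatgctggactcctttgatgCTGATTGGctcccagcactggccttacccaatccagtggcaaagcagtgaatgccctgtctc
These stretches are chr17:34287824-34288023, minus strand, and chr17:34305667-34305866, plus strand. Each holds the Y box once, from 51 to 44 bases before the start of H2-Aa and from 62 to 55 bases before that of H2-Eb1, whereas 3.54% of all stretches of this length held it. The sequence contains CCAAT on the opposite strand and so counts as a match to that motif too. H2-Aa also has 1 TGACGTCA upstream of the Y box. H2-Ab1 was not among the promoters used.

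Markers of whole leukocytes were few. Ptprc, which encodes CD45, was called higher, at 10 and 13 counts in the viable, 18 and 16 in the EGFP- and 1 and 0 in the EGFP+ libraries, or 35.6 and 29.3 against 136 and 93.3 CPM in the former 2 (log2 1.81 ± 0.46, adjusted p = 0.0457). Ptprc passed the filter only through the EGFP- libraries, and its adjusted p without a filter was 0.0476. It missed the threshold on library totals (0.0654) and with the viable and EGFP- libraries alone (0.0609), and DESeq2 gave it no adjusted p. The call was lost without either viable library (0.176 and 0.357) and without the EGFP- library of mouse 1 (0.235). Cd207, the langerin that defines Langerhans cells, had 1 and 1 counts in the viable and 1 and 3 in the EGFP- libraries and was too low to test. Summed over the 19 measured genes, the Langerhans list reached 1742 and 1393 CPM in viable, 2529 and 2699.7 CPM in EGFP- and 1042 and 988 CPM in EGFP+ libraries, a sum in which Cst3, which keratinocytes also express, takes a large share. Of the 14 shared leukocyte genes 4 were tested, and beside Ptprc none was called. Log2 fold changes were 1.77 for Cd53, -0.91 for Arhgdib and -0.47 for Ptpn6, all chosen after their values were seen. Like Ptprc, Cd53 passed the filter only through the EGFP- libraries. The 14 genes summed to 249 and 187 CPM in viable, 468 and 349.9 CPM in EGFP- and 169 and 135 CPM in EGFP+ libraries. T cell genes were near the limit of detection. Cd3e had 6 and 12 counts in viable and 4 and 6 in EGFP- libraries, Cd3g had 3 and 0 against 7 and 4, and Cd3d had 0 and 1 against 7 and 0. Only Thy1 of 23 T cell genes was tested, and the list summed to 424 and 327 CPM in viable against 611 and 251 CPM in EGFP- libraries, which overlapped. The part of leukocytes inside the gate in the class II values was not tested.

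No MHC class I gene and no marker of melanocytes or fibroblasts was called in the main fit. Of 13 class I presentation genes 6 were tested and none was called, with B2m at 1461 and 1704 against 1993 and 2292 CPM and H2-K1 at 67.7 and 87.9 against 67.9 and 152 CPM. The peptide transporter Tap1, chosen after its value was seen, passed with the block (log2 1.18, adjusted p = 0.110 and 0.0487). Among melanocyte genes Dct had 8 and 4 counts in viable and 2 and 0 in EGFP- libraries and Pmel had 1 and 2 against 0 and 0. Mitf, a transcription factor that melanocytes share with other cells and chosen after its value was seen, was called higher with the block (log2 1.82, adjusted p = 0.0539 and 0.0243). Without the block, Mitf was called with the stricter filter of 10 counts (0.0286) but not without a filter (0.0606). Mitf passed the main filter only through the EGFP- libraries. The summed level of the melanocyte list was 128 and 142 against 174 and 128 CPM. Merkel cell, endothelial and red blood cell genes had no tested member, and each of these lists summed to at most 14.3 CPM in every library. Fibroblast genes such as Col1a1 (6 and 0 counts in viable and 0 and 1 in EGFP- libraries) and Col3a1 (19 and 0 against 9 and 2) were sparse and uneven between mice. Sparc, a matrix protein of this list chosen after its value was seen, had 60 and 54 counts in viable and 10 and 6 in EGFP- libraries. Sparc was called lower with the block (log2 -1.62, adjusted p = 0.0759 and 0.00897). Without the block, it was called without a filter (0.0124) but not with the stricter filter (0.0673). The fibroblast list summed to 417 and 158 CPM in viable and 196 and 169 CPM in EGFP- libraries.

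Top2a and Tacc3, genes of the mitotic end of the cell cycle, were enriched in EGFP- cells. Of 31 mitosis genes 21 were tested, 19 had a positive log2 fold change, 2 were called higher, where 0.924% of all tested genes were, none was called lower, and the median was 0.89. Of the 21, 6 genes, Tacc3 among them, passed the filter only through the EGFP- libraries, so these counts and the median describe the tested members alone. Summed over the list, EGFP- libraries held 2763 and 2799 CPM against 1564 and 1625 CPM in viable and 1466 and 1669 CPM in EGFP+ libraries. Both EGFP- libraries stood above all others, and the libraries of a population differed little. Top2a (chromosome 11, 98992947 to 99024199), the topoisomerase that untangles replicated chromosomes, went from 185 and 158 to 408 and 443 CPM (log2 1.32 ± 0.30, adjusted p = 0.0249), and its call was lost without either viable library (0.157 and 0.326). It also missed the threshold by DESeq2 (0.0698), on library totals (0.0503), without a filter (0.0559) and with the viable and EGFP- libraries alone (0.0746). Tacc3, which stabilises spindle microtubules, went from 28.5 and 31.6 to 143 and 111 CPM (log2 2.04 ± 0.43, adjusted p = 0.0144, and 0.0872 and 0.0955 without the viable library of mouse 1 or 2). Mki67, the proliferation antigen, was at 53.4 and 49.6 against 151 and 117 CPM. Mki67 missed the threshold in the main fit and passed with the block (log2 1.36 ± 0.37, adjusted p = 0.0621 and 0.0313). Ccnb1, the cyclin of mitotic entry, was at 21.4 and 38.3 against 30.2 and 58.3 CPM (adjusted p = 0.754).

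No gene of DNA replication was called. Of 25 listed genes 14 were tested, none passed with or without the block, and the median was 0.33. Of the 14, 2 passed the filter only through the EGFP- libraries, so the median describes the tested members alone. Mcm2, a subunit of the replicative helicase, was at 49.9 and 106 against 98.1 and 134 CPM (adjusted p = 0.638). The list summed to 1628 and 1787 CPM in viable, 1849.6 and 1965 CPM in EGFP- and 1249 and 1470.3 CPM in EGFP+ libraries. On this scale both EGFP- libraries again stood above all others. The order of the EGFP- library of mouse 1 and the viable library of mouse 2 depends on their TMM factors (0.919 and 1.06). Of the D cyclins, Ccnd1 was called lower with the block but not in the main fit (210.2 and 282 against 67.9 and 157 CPM, log2 -1.09 ± 0.36, adjusted p = 0.147 and 0.0487). Ccnd2 was at 816 and 787 against 415 and 1032 CPM without a call, and Ccnd3 had no count in the viable libraries. A difference in enrichment between mitotic and replication genes was not tested.

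Promoters of the mitotic genes are shown because CCAAT boxes bound by NF-Y are a common feature of genes read in G2 and M. Capitals mark CCAAT on either strand in the 200 bases before the start.
Top2a: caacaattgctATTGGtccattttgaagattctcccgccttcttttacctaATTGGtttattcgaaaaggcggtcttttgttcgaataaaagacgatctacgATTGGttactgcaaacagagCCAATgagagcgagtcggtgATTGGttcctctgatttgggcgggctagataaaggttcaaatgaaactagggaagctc
Mki67: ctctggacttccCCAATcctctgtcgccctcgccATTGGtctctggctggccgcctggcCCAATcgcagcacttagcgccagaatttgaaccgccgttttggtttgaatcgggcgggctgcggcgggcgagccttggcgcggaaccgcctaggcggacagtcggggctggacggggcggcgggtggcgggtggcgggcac
These are chr11:99024190-99024389, minus strand, and chr7:135716380-135716579, minus strand. Top2a holds 5 matches and Mki67 holds 3, where 29.3% of all stretches held at least 1, 2.05% held 3 or more and 0.0913% held 5 or more. The stretch of Tacc3 held none.

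**Figure D3:**
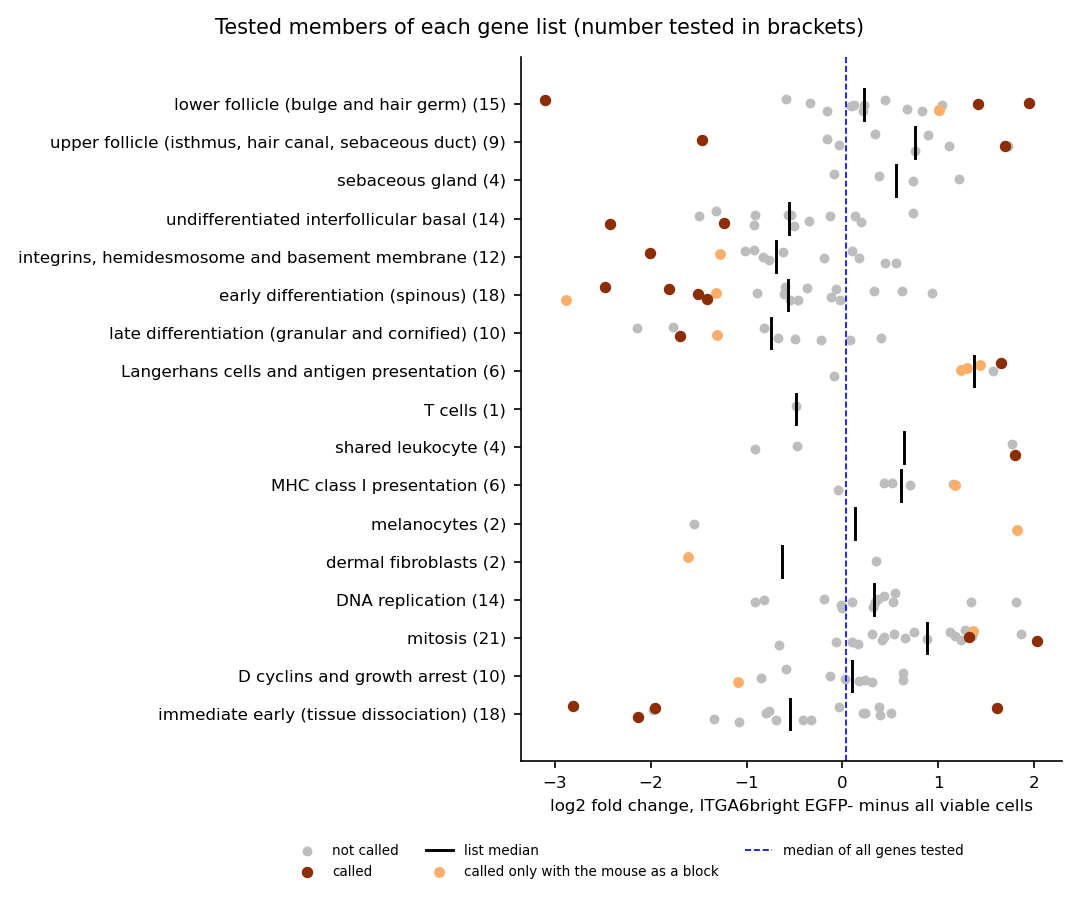
Log2 fold change of EGFP- over viable cells (x axis) for the tested members of each gene list (y axis, number tested in brackets). Called genes are in dark red, genes called with the mouse as a block but not in the main fit in orange and others in grey. A black bar marks the list median and a dashed line the median of all tested genes (0.04). Tested members passed a filter on low counts. The early differentiation list holds called genes only left of 0 and the mitosis list only right of 0, whereas the 2 follicle lists hold both.

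**Figure D4:**
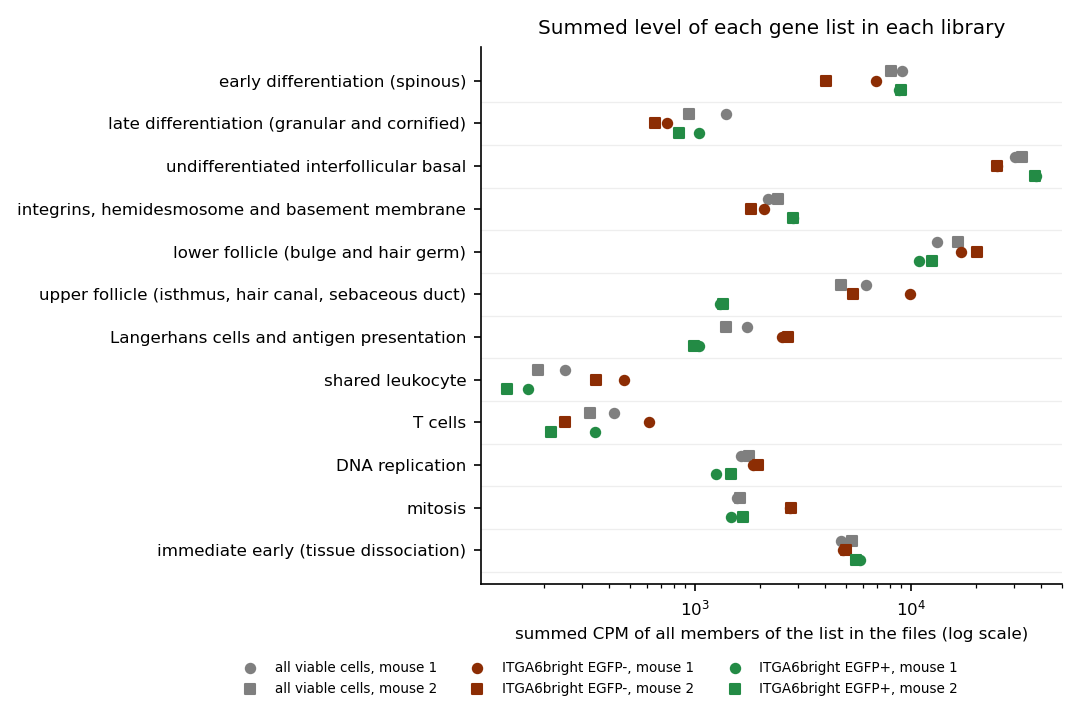
Summed CPM (x axis, log scale) of all members, found by symbol, of 12 gene lists (y axis) in each of the 6 libraries, coloured by population, with circles for mouse 1 and squares for mouse 2. The mitosis, DNA replication, lower follicle, Langerhans and shared leukocyte lists are higher in both EGFP- libraries than in all others, the differentiation, interfollicular basal and integrin lists are lower in both, and the 2 EGFP- libraries differ in the upper follicle list (9934.8 and 5394 CPM). For DNA replication and the lower follicle, the order of the EGFP- library of mouse 1 and the viable library of mouse 2 depends on the TMM scaling.

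Outside these lists the largest rises were in genes of varied function. Hsd17b13, a lipid droplet protein, had 1 and 3 counts in the viable and 14 and 7 in the EGFP- libraries (log2 3.58 ± 0.88, adjusted p = 0.0393), and lost its call without either viable library (0.312 and 0.346) or the EGFP+ library of mouse 1 (0.0516) and was too low to test without the EGFP- library of mouse 1. Pcdh19, a protocadherin, was at 7.13 and 15.8 against 83.0 and 128 CPM (log2 3.08 ± 0.58, adjusted p = 0.00617, and 0.0599 and 0.0652 without the viable library of mouse 1 or the EGFP- library of mouse 2). Cyp1b1, a cytochrome P450 that acts on steroids and xenobiotics, was at 21.4 and 24.8 against 159 and 128 CPM (log2 2.58 ± 0.44, adjusted p = 0.00375) and had no count in either EGFP+ library. Insig2, which holds SREBP proteins in the endoplasmic reticulum, was at 28.5 and 31.6 against 249 and 111 CPM (log2 2.51 ± 0.47, adjusted p = 0.00617). Both EGFP- values of each of these 4 genes lay above both viable values, and all 4 passed the filter only through the EGFP- libraries.

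Among transcription factors, Irx4 rose from 49.9 and 15.8 to 234 and 111 CPM (log2 2.47 ± 0.49, adjusted p = 0.00909) and Runx2 from 64.1 and 40.6 to 174 and 262 CPM (log2 2.12 ± 0.36, adjusted p = 0.00299). Among genes of the cytoskeleton and membrane, Tns3, which links integrins to actin, rose from 114 and 101 to 430.3 and 548 CPM (log2 2.19 ± 0.31, adjusted p = 0.00145), and Marcks, a protein kinase C substrate at the plasma membrane, from 110.5 and 122 to 506 and 414 CPM (log2 1.97 ± 0.29, adjusted p = 0.00227). These held the 2 smallest p values among the rises. Dclk1, a doublecortin-like kinase, was at 32.1 and 15.8 against 75.5 and 146 CPM (adjusted p = 0.0271), Gas7 at 118 and 94.7 against 339.7 and 461 CPM (adjusted p = 0.00339) and Ly6e, a GPI-anchored surface protein, at 677 and 656 against 2401 and 2070.0 CPM (adjusted p = 0.00314). Without the viable library of mouse 2 the adjusted p of Irx4 was 0.154, of Runx2 0.0816, of Dclk1 0.299, of Gas7 0.0696 and of Ly6e 0.0816. Irx4 also lost its call without the EGFP- library of mouse 1 (0.0627), Ly6e without the viable library of mouse 1 (0.0712), and Dclk1 without that library (0.0599) or the EGFP- library of mouse 2 (0.263).

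The largest falls outside the lists included several genes with almost no counts left. Epb4.1l3, a membrane skeleton protein, had 21 and 38 counts in the viable and 1 and 0 in the EGFP- libraries, which put its EGFP- level at 3.72% (0.0925 to 21.5%) of the viable one (exact 95% counting interval, adjusted p = 0.00582). Them5, a mitochondrial thioesterase, stood at 9.14% (1.08 to 34.8%) (adjusted p = 0.0329) and Sox15 at 10.4% (1.22 to 40.1%) (adjusted p = 0.0456) by the same measure. Serpinb7, a protease inhibitor, was at 157 and 156 against 15.1 and 40.8 CPM (log2 -2.39 ± 0.45, adjusted p = 0.00688). The transcription factors Sox21 and Maf were at 467 and 496 against 128 and 93.3 CPM (log2 -2.13 ± 0.33, adjusted p = 0.00270) and at 591 and 451 against 128 and 134 CPM (log2 -1.98 ± 0.33, adjusted p = 0.00299). Clca5 was at 310.0 and 397 against 67.9 and 93.3 CPM (log2 -2.11 ± 0.35, adjusted p = 0.00299). Them5 lost its call without either viable library (0.0841 and 0.0696) or the EGFP- library of mouse 2 (0.0837), and Sox15 without either viable library (0.136 and 0.0696). Of these genes, Epb4.1l3, Serpinb7, Sox21, Maf and Clca5 were also called lower in EGFP- than in EGFP+ cells, each also with any one library left out. Them5 and Sox15 were called lower there too (adjusted p = 0.0180 and 0.00631), but not without the EGFP- library of mouse 2 for Them5 (0.0831) or the EGFP+ library of mouse 1 for Sox15 (0.128).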

How the data were processed

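Bulk RNA of all viable, ITGA6bright EGFP- and ITGA6bright EGFP+ epidermal cells of the 2 mice was sequenced by CEL-Seq2, which primes at the poly(A) tail, after overnight trypsin, DAPI exclusion and sorting. The authors deposited whole-number counts per gene and library, without normalization, and the study's methods call them raw read counts. Per the labels, BWA 0.6.2-r126 and the builds mm10 and hg19 were used. Whether molecular identifiers were collapsed is not given in the sources used here. Of 16214 genes, edgeR's filterByExpr kept 4653. Depth was 157537 to 453005 counts a library, and intervals and limits cover counting error only. All 6 bulk libraries were fitted with population as the only term (edgeR 4.0.16 in R 4.3.3, quasi-likelihood, TMM), and genes with a Benjamini-Hochberg adjusted p under 0.05 were called. Standard errors were derived from the fold change and its F statistic.

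Libraries were paired by mouse because they come from the same animal. The same-mouse correlation of deviations from the population means was 0.0900 for EGFP- and viable, 0.0521 for EGFP- and EGFP+ and 0.0859 for EGFP+ and viable libraries. The mouse was therefore also fitted as a block. Replicates differed by more than sampling noise (chi-square per degree of freedom 1.50 to 4.06, highest for EGFP-). Other alternatives were DESeq2 1.42.0, RLE factors, library totals, no filter, a filter of 10 counts, mitochondrial genes left out, the viable and EGFP- libraries alone, and each library left out. Leaving out an EGFP+ library, and the block on 4 libraries, were chosen after seeing the data.

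Genes named are the called ones with the 10 most positive and the 10 most negative fold changes, given at least 20 counts and the same direction in both mice, the 5 smallest p in each direction, of each of 20 gene lists up to 6 called members and the first 3 members, and Tnfrsf19, Itga6, Ly6a and Ptprc. Others are said to be chosen after their values were seen. The comparison and the lists were chosen with earlier results of these data known. List members were matched by symbol alone, so a member filed under another symbol, such as Plet1, is missing from the counts and sums. Coordinates are GENCODE vM21 gene bounds in GRCm38. Promoters are RefSeq stretches, found for 63 of the 89 named genes. 1 gene chosen by this rule is not reported here. The single-cell data were not used here.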

Additional observations from a re-analysis of the deposited data

Results flagged for a closer look

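A group of 4 genes differed from viable cells in opposite directions in the 2 basal populations, each past the threshold of edgeR's test. The difference between the basal populations follows from these opposite calls, which share the viable libraries, and is given as a description. The log2 difference of EGFP- minus EGFP+ cells was 4.23 for Defb6, 4.18 for Foxc1, 4.23 for H2-Ab1 and 4.45 for Igfbp4, a secreted binding protein of insulin-like growth factors. Igfbp4 was at 132 and 135 CPM in viable, 219 and 717 CPM in EGFP- and 29.5 and 9.02 CPM in EGFP+ libraries. Several of the calls against viable cells depended on single libraries. In EGFP+ cells the adjusted p was 0.0756 for Defb6 without the EGFP+ library of mouse 1, 0.140 and 0.0872 for H2-Ab1 without the viable library of mouse 1 or the EGFP+ library of mouse 2, and 0.155 for Igfbp4 without the latter, while that of Foxc1 stayed between 3.77e-13 and 0.0141 with any one library left out. In EGFP- cells Igfbp4 went from an adjusted p of 0.0190 to 0.103 and 0.0816 without the viable library of mouse 1 or 2 and to 0.285 without the EGFP- library of mouse 2.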

How the results depend on the processing

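No called gene changed direction under any alternative that gave a value. With the mouse as a replicate block 163 genes were called, 83 higher and 80 lower (98, 52 and 46 on the viable and EGFP- libraries alone), and the contrast with EGFP+ cells gave 468 calls against 328. Of the genes named by rule, 4 gained a call with the block on all 6 libraries. With the block on the viable and EGFP- libraries alone, 1 did. DESeq2 called 49 genes, 15 higher and 34 lower, and 136 in the contrast with EGFP+ cells, and of the 83 genes it gave an adjusted p for 50 and kept 39. Scaling by library totals gave 27 higher and 49 lower. Without a filter 133 genes were called, 90 of them lower, and 73 of the 83 were kept. The viable and EGFP- libraries alone gave 38 calls, 18 higher and 20 lower. Leaving out 1 library gave 27 to 464 calls (fewest without the viable library of mouse 2), 7 to 206 higher (fewest without the same) and 17 to 258 lower (fewest without the viable library of mouse 1), each highest without the EGFP- library of mouse 2, and 131 to 751 calls in the contrast with EGFP+ cells. RLE factors and leaving out mitochondrial genes kept the counts of both contrasts within 1.5 times, and the stricter filter, run for the contrast with viable cells, kept those of that contrast. The causes were not tested. The EGFP- libraries, with 157537 and 188225 counts, limit what can be detected: a count of 0 over the pair allows up to 3 counts among their 345762.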
